A study of Mus musculus with 2 samples.

Results

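Melanocyte-like cells were examined in the droplet single-cell RNA library of a clone of induced myogenic progenitor cells (iMPCs) kept with the JAK inhibitor CP. The cells were chosen by their counts of pigment transcripts. A barcode was taken as melanocyte-like when its unique molecular identifiers (UMIs, each standing for 1 counted mRNA molecule) of Tyrp1, Dct, Mlana and Pmel summed to at least 8. This held for 73 of the 10834 barcodes that passed the filters of the study, a share of 0.674% (exact 95% interval 0.529 to 0.847%), and the other 10761 kept barcodes served as the comparison. The same limit was reached by 0 of 3962 kept barcodes in the library without CP, which allows a share of up to 0.0757% by a limit of 3 counts (exact 95% upper bound 0.0931%). There the highest summed count was 1 UMI, but that library was also shallower, with a median of 6722 UMIs per barcode against 21920.5.

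Both iMPC lines were derived from mouse embryonic fibroblasts carrying the Pax7-nGFP transgene, a green nuclear reporter driven by Pax7, on a mixed C57BL6;DBA2 background. Each line was 1 clone made by 4 transfections with synthetic mRNA encoding MyoD, the factor that turns fibroblasts toward muscle, and the medium held B18R, a poxvirus protein that captures type I interferons. Both clones were made with 3 small molecules, of which Forskolin (F) raises cyclic AMP levels, RepSox (R) inhibits TGF-β signalling at its receptor and CHIR (C) turns on the Wnt pathway. The library called F/R/C comes from a clone with these molecules alone, and the library called F/R/C+CP from a clone that received CP (CP690550) as well. With 1 library and 1 clone per condition, no test was possible and none was run, so every value below describes these barcodes, and the intervals cover counting error only. CP, the clone and the library cannot be told apart.

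Melanocytes are pigment cells that arise from the neural crest, partly by way of Schwann cell precursors that line growing nerves. Sox10 and Pax3 switch on Mitf, the factor that drives the enzymes of melanin synthesis, and the receptors Kit and Ednrb guide the migration and survival of their precursors, the melanoblasts. Melanin is made in melanosomes, organelles related to lysosomes, in which Pmel forms the fibrils and Tyr, Tyrp1 and Dct carry out the chemistry. Tyr performs the rate-limiting first step. Skeletal muscle cells are mesodermal and are not known to make the melanosomal proteins Pmel, Tyr, Tyrp1 and Dct.

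The letters CATGTG and CACGTG form the core of the sites to which MITF is known to bind. They are shown here for the pigment enzymes Tyrp1 and Dct, which are genes of the rule, and Tyr, which is not. RefSeq promoter windows of 300 bases on the build GRCm38.p6, reaching from 250 bases before to 50 after the start, were found for Tyrp1 and Dct among the 4 genes of the rule and for 13 of 17 other pigment genes. Each sequence runs 5′ to 3′ on the gene's own strand, all of it before the start, with the 6 letters in capitals (CACATG is CATGTG read from the other strand).
Tyrp1, chr4:80834155-80834184, plus strand: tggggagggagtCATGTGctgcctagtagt
Dct, upstream copy, chr14:118052461-118052490, minus strand: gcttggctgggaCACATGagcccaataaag
Dct, downstream copy, chr14:118052379-118052408, minus strand: tgcacttagggtCATGTGctaacaaagagg
Tyr, chr7:87493516-87493545, minus strand: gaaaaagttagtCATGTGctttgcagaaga
The capitals began 46 bases before the start of Tyrp1, 232 and 150 bases before that of Dct and 21 bases before that of Tyr. All 4 also carried the longer form, which adds a T before the 6 letters on the strand that reads CATGTG. On either strand, CATGTG or CACGTG was present in both windows of the rule genes, in 7 of the 13 other pigment genes and in 22.8% of all 27025 genes with a window. The form TCATGTG or TCACGTG, which contains the shorter one, was present in both, in 5 of 13 and in 8.40%. Such a match describes the letters and not a bound site. Pmel, Mlana, Gpr143, Slc45a2, Syt4 and Bace2 had no entry.

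The 4 genes of the rule chose the cells, so their values are given only as a description. Across the 73 melanocyte-like barcodes Dct (dopachrome tautomerase) ranged from 0 to 280 UMIs with a median of 76, and Tyrp1 from 0 to 65 with a median of 18. Pmel ranged from 0 to 71 UMIs with a median of 11, and was found in 55 barcodes against 71 for Dct and 69 for Tyrp1. Mlana, a small melanosomal protein, was barely seen, with 13 UMIs spread over 9 barcodes. At least 3 of the genes were held by 53 of the 73 barcodes and all 4 by 9. Summed over barcodes and scaled to counts per 1000000 UMIs (CPM), Dct stood at 3769 CPM against 1.12 CPM in the other barcodes, Tyrp1 at 986 against 0.341 and Pmel at 766 against 0.883.

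The summed counts left a gap around the limit. Of the kept barcodes 10160 held 0 UMIs of the 4 genes, 572 held 1 and 24 held 2. Only 5 fell between 3 and 7, at 3, 3, 3, 5 and 7 UMIs. The lowest melanocyte-like barcodes held 9, 14, 16, 17 and 17 UMIs, the median held 111 and the highest 391, and 38 of 73 held at least 100. The barcode at 9 UMIs held Tyrp1 alone, with 1 UMI of Sox10 and none of Mitf or Pax3. Just below the limit, the barcode at 7 UMIs had 33 Myog UMIs, whereas 1 of those at 3 held 6 Sox10 and 5 Pax3 UMIs.

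**Figure D1:**
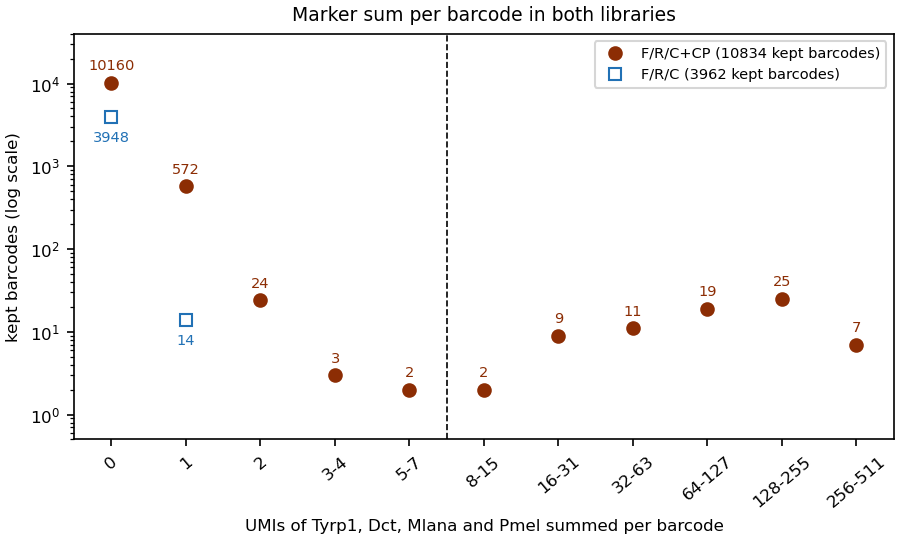
Number of kept barcodes (log scale) by the summed UMIs of Tyrp1, Dct, Mlana and Pmel per barcode, for F/R/C+CP (filled circles) and F/R/C (open squares), with the count beside each point and the limit of 8 as a dashed line. In F/R/C+CP 10160 barcodes sat at 0 and 73 lay past the limit, whereas no F/R/C barcode held more than 1 UMI.

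Muscle transcripts were present in every kept barcode of the library and split the melanocyte-like ones. Sarcomere genes took 1.17% of the UMIs of the median melanocyte-like barcode, with a range of 0.632 to 16.5%, against a median of 1.27% in the other barcodes. A list of 32 genes of the muscle lineage (Pax7, Myod1, Myog and others, here called myogenic) took 20.2 per 10000 UMIs, against 63.6. This list also holds Cdkn1c, a cell-cycle inhibitor that other cells use too, which made up 30.8% of its UMIs in the 73 barcodes and 40.8% in the others. In all, 43 barcodes were low in both (at most 3% sarcomere and at most 30 per 10000 myogenic UMIs) and 30 were above either limit. These limits were set after the values were seen, and 8 of the 73 lay between 25 and 35 per 10000 myogenic UMIs and 4 between 2 and 4% sarcomere UMIs. With Cdkn1c left out of the list, an alternative chosen after seeing the data, 55 barcodes were low and 18 were above either limit, so 12 of the 30 rested on Cdkn1c.

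The 30 barcodes with muscle UMIs differed from the 43 in more than muscle genes. Their median depth was 26139 UMIs against 15067, and that of the other kept barcodes was 21856. At least 8 Myog UMIs were held by 13 of the 30, and at least 3 Pax7 UMIs by 8. Low values of these genes in the 43 are set by the selection and say nothing more. By Scrublet, a score of resemblance to simulated pairs of cells, 20 of the 30 and 3 of the 43 ranked among the 1040 highest-scoring barcodes, against 9.45% of the other barcodes. The caller itself marked only 2.76% of kept barcodes as doublets against an expected 9.60%, and 1 of the 73, so no barcode was removed. Whether the 30 were pairs of cells was not tested. Medians of several lists are therefore given both for all 73 and for the 43, but most single genes only for all 73. With the 43 alone, the ratios of 131 named genes moved outside their counting interval over the 73, whereas 43 genes stayed within it.

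**Figure D2:**
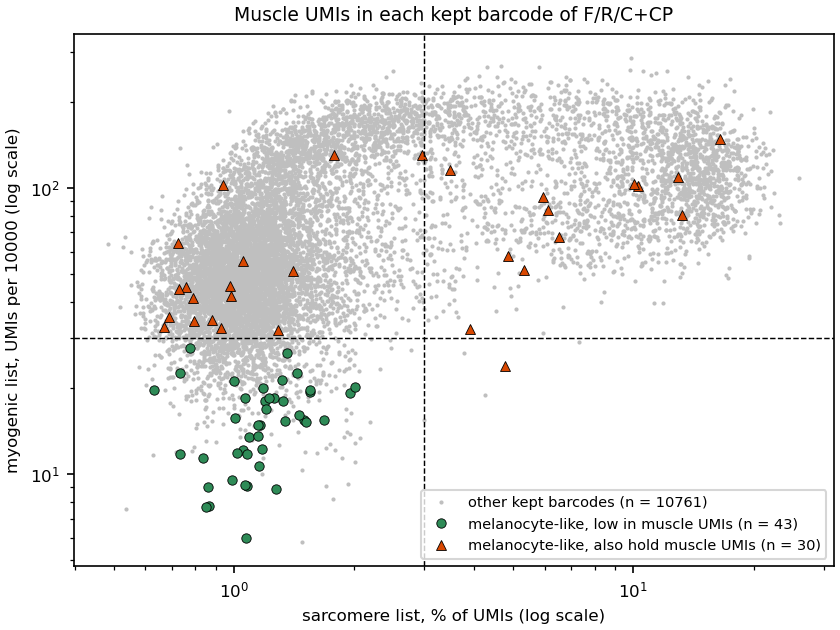
Each kept F/R/C+CP barcode by its share of sarcomere UMIs (percent, log scale) and its myogenic UMIs per 10000 (log scale), with other barcodes in grey, the 43 melanocyte-like barcodes low in muscle UMIs as circles and the 30 others as triangles; dashed lines mark 3% and 30 per 10000. The circles lay among the lowest myogenic values, in the lower left corner, and 13 triangles lay to the right of 3%.

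Sarcomere genes and Myog were also taken as a gauge of free RNA, that is, of transcripts that droplets pick up from other cells. Over all 73, the 46 measured sarcomere genes stood at a median ratio of 0.757 to the other barcodes (0.551 to 1.42), and Myog, the factor that starts muscle differentiation, at 0.526. In the 30 the ratios were 1.11 and 0.823. In the 43, which were selected for few UMIs of these same genes, the sarcomere genes stood at a median ratio of 0.239 (0.130 to 1.79) and Myog at 0.151, values that the selection lowered. The highest ratio in the 43 was that of Tpm3, a tropomyosin that non-muscle cells also make. The Pax7-holding barcodes (3214, at least 3 Pax7 UMIs) stood at 0.315 and 0.283, and the Myh11-holding ones (141, at least 5 UMIs of this smooth muscle myosin) at 0.50 and 0.264. Set against the 1080 barcodes richest in sarcomere UMIs, themselves chosen on these genes, the 73 held a median of 22.8% of their sarcomere level.

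Pigment transcripts were conversely rare in the other barcodes, where Kit and Tyr came to 0.0148 and 0.0556 CPM over all 10761. The 73 barcodes, 0.674% of those kept, held 95.4% of the Dct UMIs of the kept library (94.9 to 95.9%). Dct is a gene of the rule, so the selection itself makes this share high. Of genes outside the rule the 73 held 98.4% of the Kit UMIs (96.0 to 99.6%), 89.4% of Tyr, 88.4% of Sox10, 71.3% of Pax3 and 21.2% of Mitf. Mitf was thus mostly found outside these barcodes, at a low level per cell.

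Genes outside the rule were compared as the log2 ratio of CPM over the other barcodes, for 6309 genes with a mean of at least 20 CPM. The same barcodes that the rule chose enter this contrast, so the ratios are descriptive. Of these genes 10.2% stood at least 2-fold higher and 1.93% at least 2-fold lower in the 73, and 55.4% had a ratio above 1, with a median log2 ratio of 0.07. In the 43 the shares were 20.1% and 9.08% of 6521 genes. CPM of 3′-end UMIs does not grow with the length of the transcript. In all, 649 of the 6309 genes, with under 20 CPM in the other barcodes, passed only through the melanocyte-like ones and were bound to be higher.

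**Figure D3:**
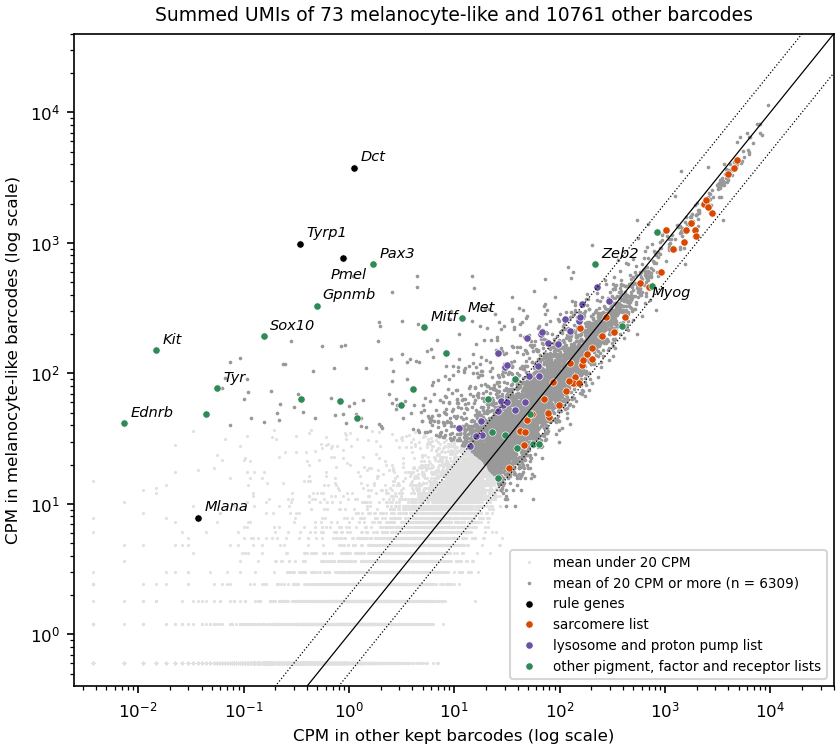
CPM of each gene in the 73 melanocyte-like barcodes against the 10761 other kept barcodes (both log scales), with genes at 0 drawn at the value of 1 UMI, the 6309 compared genes in dark grey, list genes in colour, equality as a solid line and 2-fold differences as dotted lines. Dct, Tyrp1, Pmel, Kit, Tyr, Sox10 and Pax3 lay far above the diagonal and the sarcomere genes lay near it.

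Pigment genes beyond the rule were mixed. Of 17 listed, 8 were compared, of which 6 were higher, against 55.4% of all genes. Of the 8, 4 were at least 2-fold higher, against 10.2% of all genes. Those 4 (Tyr, Slc45a2, Gpnmb and Slc24a4) passed the filter only through the melanocyte-like barcodes and were bound to be higher, so they are described here and are no independent check of the label. Tyr, tyrosinase itself, stood at 76.6 CPM against 0.0556, a log2 ratio of 10.43 (9.65 to 11.31), but in only 25 of 73 barcodes, with at most 10 UMIs in any. Slc45a2, a melanosomal transporter, stood at 48.9 CPM against 0.0445 (10.10, 9.22 to 11.11) and was seen in 34. Gpnmb, a relative of Pmel, reached 330 CPM against 0.493 (9.39) and was seen in 65, with a median of 6 and a maximum of 42 UMIs. Slc24a4, an exchanger of sodium and calcium, followed at a log2 ratio of 7.52 in 24 barcodes.

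The remaining pigment genes were closer to the other barcodes or scarce. Slc24a5, the melanosomal exchanger, stood at 35.6 against 22.9 CPM (0.64), and Cd63, the tetraspanin that sorts Pmel, at 1207 against 848 (0.51). Atp7a, the copper pump that supplies tyrosinase, stood at 29.0 against 63.7 CPM, a log2 ratio of -1.14, and Slc7a11, a cystine carrier, at -0.72. Over the 8 compared genes the median log2 ratio was 4.08 (4.42 in the 43). Below the level compared were Gpr143 (29 UMIs in 14 barcodes), Oca2 (29 UMIs in 7) and the cation channel Trpm1 (18 UMIs in 15), while Atp7b and Mcoln3 were at 0.

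Machinery that carries cargo to melanosomes and moves them was higher in 13 of 14 compared genes (55.4% of all genes), 5 of which passed only through the melanocyte-like barcodes. The median log2 ratio was 0.70 (1.10 in the 43). Rab38 and Rab32, small GTPases that deliver tyrosinase and Tyrp1, stood at 176 against 0.282 CPM (9.28) and 72.4 against 0.111 CPM (9.35), in 61 and 42 barcodes. Rab27a, which ties melanosomes to actin, stood at a log2 ratio of 5.81 in 44 barcodes. Its linker Mlph held 48 UMIs in 22 barcodes, below the level compared, and the motor Myo5a stood at 59.1 against 37.5 CPM (0.66). Lyst, which governs the size of lysosome-related organelles, followed at 2.37, and Bloc1s2 was the lower gene at -0.17 (-0.46 to 0.11).

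Transcription factors of the lineage were led by Sox10 and Pax3. Sox10 stood at 193 CPM against 0.156 (10.28, 9.81 to 10.78), with 0 to 15 UMIs per barcode and a median of 4, and was present in 68 of 73 barcodes and in all 43 of those low in muscle UMIs. Pax3 stood at 686 CPM against 1.70 (8.66, 8.50 to 8.82), with 0 to 43 UMIs and a median of 13, and was present in 70. Pax7, its close relative in muscle progenitors, stood at 43.4 against 82.0 CPM (-0.92). Mitf stood at 226 CPM against 5.18 (5.45, 5.28 to 5.61), with 0 to 19 UMIs, and was present in 67.

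Since barcodes differ in depth, the presence of a factor was also counted after thinning each to 12000 UMIs. Sox10 was then seen in 83.6% of melanocyte-like barcodes (73.1 to 91.2%) against 0.167% of the others, and unthinned in 93.2% against 0.307%. Pax3 was seen in 93.2% against 1.96%, and Mitf in 80.8% (69.9 to 89.1%) against 4.90%. Kit was seen in 60.3% against 0.00929% and Tyr in 31.5% against 0.0743%. The median depths before thinning were 18528 and 21856 UMIs, and the shares in the other barcodes serve as the background for each gene. In the F/R/C library, Kit, Tyr, Dct and Tyrp1 were at 0 UMIs, which allows up to 0.108 CPM each, whereas Sox10 stood at 0.18 CPM, Mitf at 4.78 and Pax3 at 25.2.

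Other crest factors were mixed, and some were shared with other non-muscle cells. Ets1 stood at 76.0 against 4.06 CPM (4.23), Bhlhe41 at 57.3 against 3.16 CPM (4.18) and Tbx2, a repressor of cell-cycle inhibitors, at 90.5 against 38.1 CPM (1.25). Sox5 stood at 143 against 8.36 CPM (4.10) and Zeb2, needed for melanocyte differentiation, at 684 against 218 CPM (1.65), but the Myh11-holding barcodes held more of both, 185 and 1043 CPM. Alx1 did not differ beyond counting error at -0.09 (-0.43 to 0.22). Zeb1, Tbx3 and Mef2c stood at -0.74, -0.96 and -0.67. In all 12 of 28 factors were compared and 8 were higher, against 55.4% of all genes, with a median log2 ratio of 2.87 (3.48 in the 43). Of the 12, 6 (Sox10, Pax3, Mitf, Ets1, Bhlhe41 and Sox5) passed only through the melanocyte-like barcodes and were bound to be higher. Among the rest Zeb2 and Tbx2 were higher, whereas Alx1, Zeb1, Tbx3 and Mef2c were not. Tfap2a, a crest factor, was below the level compared at 61 UMIs in 29 barcodes, and Tfap2b, Tfap2e and Tfec were at 0.

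Receptors known from melanoblasts included Kit, the largest ratio among the compared genes. Of 17 listed receptors 8 were compared and 7 were higher, against 55.4% of all genes. Of the 8, 5 (Kit, Ednrb, Met, Plxnc1 and Mertk) passed only through the melanocyte-like barcodes and were bound to be higher. Kit stood at 150 CPM against 0.0148 (13.31, 11.93 to 15.19), with 249 UMIs in 50 of the 73 barcodes and 4 UMIs in all 10761 others. Per barcode Kit ranged from 0 to 33 UMIs with a median of 2. Ednrb, the endothelin receptor, had 69 UMIs in 26 melanocyte-like barcodes and 2 in the others, a log2 ratio of 12.45 with a wide interval of 10.55 to 15.53. Met, the receptor of hepatocyte growth factor, stood at 263 against 11.8 CPM (4.48), Plxnc1, a semaphorin receptor, at 61.6 against 0.816 CPM (6.24) and Mertk, a receptor kinase, at 45.3 against 1.19 CPM (5.25). Erbb3, the neuregulin receptor of glia and crest cells, stood at 63.4 against 20.9 CPM (1.60). Egfr at 0.15 (-0.25 to 0.53) did not differ beyond counting error, and Fgfr1 stood at -0.58. The melanocortin receptor Mc1r had 17 UMIs in 13 barcodes and was not compared, and Pdgfra and Ntrk3 were at 0. Of the ligands only Nrg1 was compared, at -1.14.

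Transcripts that pigment cells share with Schwann cells and their precursors were present. Cdh19, a cadherin of crest and Schwann cell precursors, stood at 132 CPM against 0.0927 (10.48, 9.88 to 11.14) in 49 barcodes. Tubb3, a tubulin used as a neuronal marker, stood at 301 against 9.37 CPM (5.01) in 63 barcodes. Pmp22 stood at 153 against 59.2 CPM (1.37), with 238 CPM in Myh11-holding barcodes. Nes, Ncam1 and Cnn3 stood at -0.49, -0.58 and -0.16. The list had 10 compared genes of 25, of which 7 were higher, against 55.4% of all genes, with a median of 1.92 (2.42 in the 43). Of the 10, 4 passed only through the melanocyte-like barcodes and were bound to be higher, and 3 (Nes, Ncam1 and Cnn3) were lower. Sox10 and Erbb3 are also in the lists above. Mbp, a marker of myelinating glia, held 5 UMIs in 2 barcodes, and Fabp7 and Sox2, markers of immature glia, held 23 and 14 UMIs. Gfap, Elavl3 and Stmn2 were at 0.

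The 20 highest ratios outside the rule, among genes of at least 50 CPM in the melanocyte-like barcodes, included several genes not on the pigment lists. Plscr2 (10.69), Igsf11 (10.42), an adhesion protein known from pigment cells, and Gjb2 (10.26), the connexin 26 gap junction subunit, were seen in 53, 50 and 41 barcodes. Adgb (8.96), Prex2 (8.88), Insc (8.66) and Nipal3 (8.19) were seen in 48 to 52. Lrrtm4 (9.71), Sostdc1 (9.32) and Ntng1 (8.04) were seen in 24 to 26. Ptgds, a prostaglandin synthase, stood at 561 against 1.09 CPM (9.01) but unevenly: 38 of 73 barcodes held it, the highest with 160 UMIs, and the 7 richest held 75.8% of its UMIs. Cpne4 (7.82) was more uneven, in 19 barcodes with 79.7% of its UMIs in 7.

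Lysosomal enzymes and proton pump subunits, on which lysosome-related organelles draw, were higher throughout. All 29 compared genes of 38 had a ratio above 1, against 55.4% of all genes, and 14 were at least 2-fold higher, against 10.2%. The median log2 ratio was 0.99, and in the 43 it was 1.44 with 26 past 2-fold. Only 5 of the 29 passed through the melanocyte-like barcodes alone. Atp6v0a1, a pump subunit, stood at 144 against 25.9 CPM (2.48), cathepsin B (Ctsb) at 188 against 48.9 CPM (1.94) and cathepsin Z (Ctsz) at 112 against 30.4 CPM (1.88). Hexa, a ganglioside hydrolase, stood at 116 against 31.8 CPM (1.87), with 128 CPM in the Myh11-holding barcodes. The lowest was Atp6v1g1 at 0.29 (0.17 to 0.40). Summed, the list came to 4375 CPM in the 73 and 5933 in the 43, against 2178 in the others and 4106 in the Myh11-holding barcodes, so the latter held nearly as much as the 73.

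Genes reported as MITF targets outside pigment synthesis were higher in 19 of 20 compared genes, against 55.4% of all genes, and 12 were past 2-fold, against 10.2%. Of the 20, 6 passed only through the melanocyte-like barcodes, and 9 of the 35 measured list genes held 3 UMIs or fewer in them, 4 of these none. The median log2 ratio was 1.25 (1.67 in the 43). Ppargc1a, a coactivator of mitochondrial genes, stood at 42.2 against 0.156 CPM (8.08) in 35 barcodes, and St3gal6, a sialyltransferase, at 42.8 against 5.86 CPM (2.87). Met, given above, is also in this list. At the other end Gmpr at -0.05 (-0.53 to 0.40), Nav2 at 0.01 and Cdk4 at 0.08 did not differ beyond counting error.

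**Figure D4:**
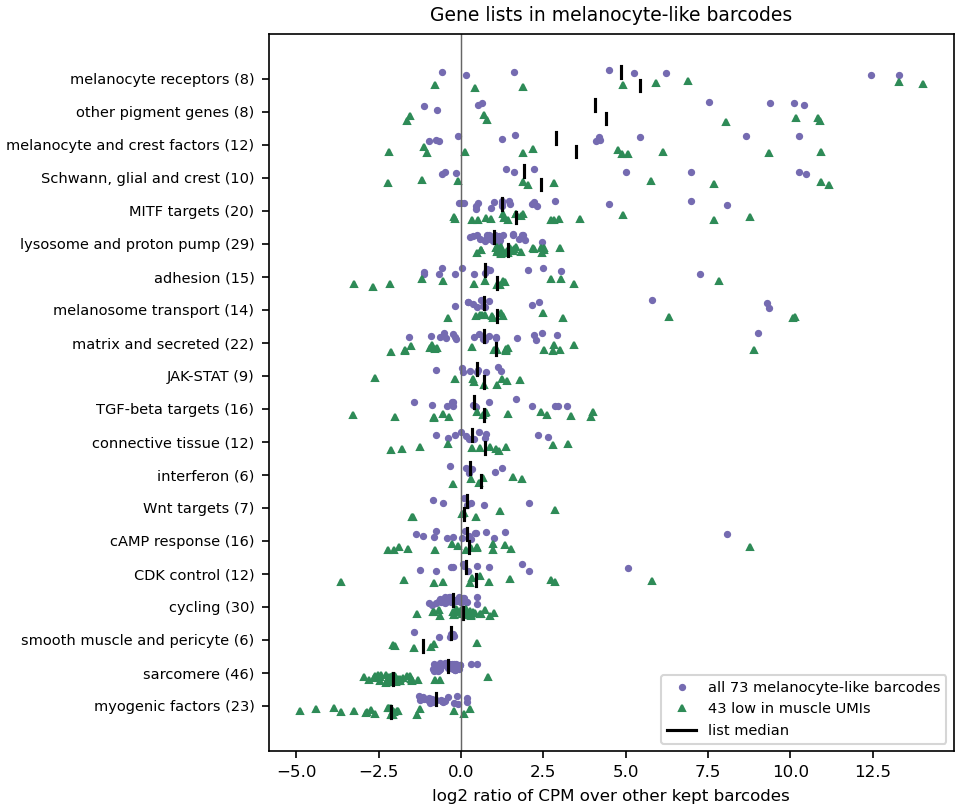
Log2 ratio of CPM over the other kept barcodes for each compared gene (points) of each list with at least 4 compared genes, for all 73 melanocyte-like barcodes (circles) and the 43 low in muscle UMIs (triangles), with list medians as black bars and the number of genes in brackets; genes of the rule are left out. Receptor, pigment and factor lists lay to the right and muscle lists to the left; the triangles of the sarcomere and myogenic lists are placed there by the selection of the 43.

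Muscle genes were lower in the melanocyte-like barcodes than in the others. The counts of lower genes here stand beside 2813 lower ones among all 6309 compared genes. Of 23 compared myogenic genes 21 were lower, with a median log2 ratio of -0.76. No value is given for the 43, which were selected on this list. Myod1 stood at 49.5 against 118 CPM (-1.26) and Myog at 343 against 652 CPM (-0.93). Cdkn1c stood at 1507 against 3533 CPM (-1.23). Sarcomere genes were lower in 44 of 46 with a median of -0.40, and Cryab and Tpm3 were the exceptions at 0.32 and 0.50. Set against the Pax7-holding and the Myh11-holding barcodes instead, the medians of the 73 were 1.20 and 0.57 for sarcomere genes and 0.32 and 0.45 for myogenic ones. The 10 lowest ratios among genes of at least 50 CPM in the other barcodes were those of Dpp6, Dpysl3, Cd82, Dync1i1, Frmpd1, Usp29, Dlg2, Pdgfc, Pkhd1 and Gramd1b, from -2.36 for Dpp6 to -1.44 for Gramd1b.

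Markers of other tissues were checked beside these values. No endothelial or blood cell gene was high enough to compare: 7 of 12 endothelial markers were at 0, among them Cdh5 and Kdr, and 9 of 14 blood cell markers, among them Ptprc, with 35 and 13.3 CPM summed over each list. Epithelial markers summed to 39.2 CPM, with Epcam, Krt5 and Krt14 at 0 and only Trp63 compared (-0.87). Smooth muscle and pericyte genes were lower in 6 of 6, against 2813 of all 6309 compared genes. Their median of -0.32 turned to 0.45 with no filter on barcodes. Acta2, smooth muscle actin, stood at 200 against 539 CPM, where the Myh11-holding barcodes held 4642. Tagln alone was above the other barcodes in the 43 (0.49), where its 169 UMIs sat in 9 barcodes. Of the 43, 1 barcode held at least 5 Myh11 UMIs.

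The melanocyte-like barcodes also lay together when the rule genes were withheld. Among the 15 nearest neighbours in 30 principal components computed without Tyrp1, Dct, Mlana and Pmel, a mean of 82.7% were melanocyte-like, against 0.0341% around the other barcodes. All 15 were melanocyte-like for 48 of the 73 and none for 4. The mean was 94.6% for the 43 and 65.8% for the 30. With every pigment, melanosome, factor, receptor and MITF target list also withheld it was 81.3%. The barcode with 3 rule UMIs, 6 Sox10 and 5 Pax3 UMIs was the only other barcode with more than 50% of its neighbours melanocyte-like, and all 15 were.

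Within the melanocyte-like cells the level of pigment transcripts varied widely. The summed count per 10000 UMIs ran from 6.0 to 239 with a median of 55.2. Over the 43 low in muscle UMIs, ranks of Dct and Pmel per 10000 UMIs moved together (Spearman's rho 0.82), as did Tyrp1 and Pmel (0.74), Kit and Gpnmb (0.72) and Mitf and Pax3 (0.67). These barcodes share a library and a scaling to total UMIs, so the values are descriptive, and Sox10 showed weaker relations with Dct (0.20) and Tyr (0.06).

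The 43 were also divided, as a description, at their median of 135 rule UMIs, a cut that uses Pmel itself. Tyr stood at 199 CPM in the 21 barcodes above it and at 11.0 in the 22 at or below it, found in 13 and in 1. Pmel stood at 1791 and 212 CPM and Kit at 397 and 93.4. Slc24a4 stood at 158 and 24.7 CPM, and Cpne4 had 121 of its 122 UMIs in 8 barcodes above the median. Sox10 (280 and 330 CPM), Tubb3 (485 and 530) and Rab32 (125 and 126) were alike in both. Ccnd1, the cyclin that starts the cell cycle, was lower above the median, at 569 against 1299 CPM. Ranks of Slc24a4 and Cpne4 also moved together over the 43 (rho 0.68).

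**Figure D5:**
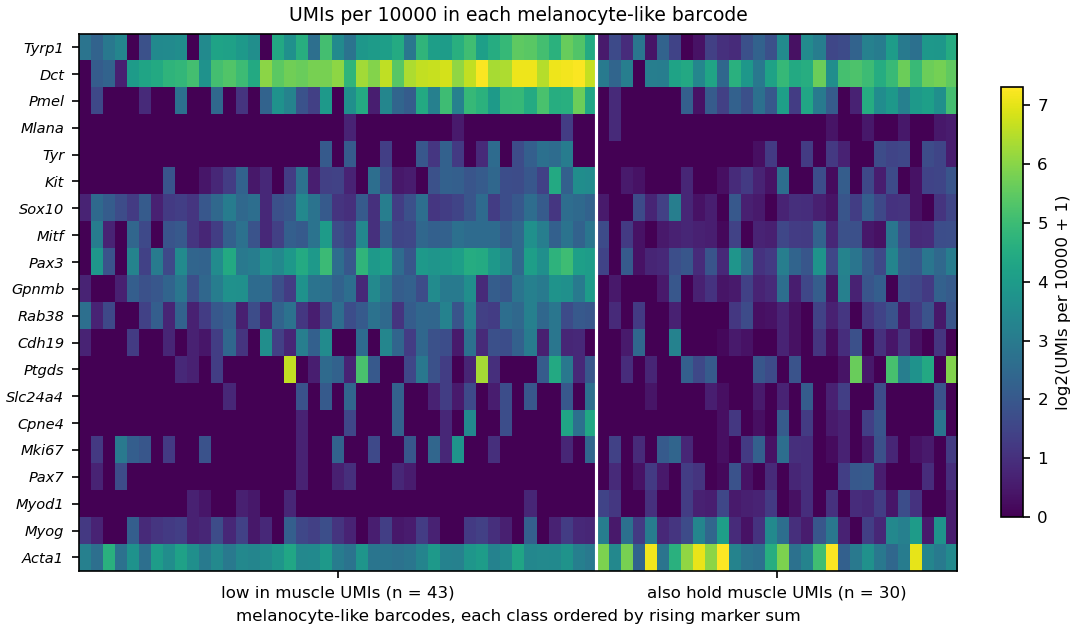
UMIs per 10000 (log2 of the value + 1, colour) of 20 genes in each of the 73 melanocyte-like barcodes, those low in muscle UMIs at left and those with muscle UMIs at right, each ordered by rising summed count of the rule genes. Tyr, Kit and Pmel brightened toward the right of the left block, Sox10 was seen across it, Ptgds and Cpne4 were bright in a few barcodes, and Myog and Acta1 were bright mainly in the right block.

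Transcripts of dividing cells were found in some melanocyte-like barcodes. At least 3 UMIs of Mki67, a marker of proliferation, were held by 20 of 73 (27.4%, 17.6 to 39.1%) and by 10 of the 43 (23.3%, 11.8 to 38.6%), against 34.7% of the other barcodes and 59.2% of the Pax7-holding ones. Thinned to 12000 UMIs, 41.1% (29.7 to 53.2%) held any Mki67, against 46.2%. Of 30 compared S phase and mitosis genes 22 were lower over the 73 (median -0.25), where 55.4% of all genes had a ratio above 1 (median 0.07). Over the 43, 18 were higher, with a median of 0.05 beside 0.14 for all genes. Without the barcodes that hold muscle UMIs, the list thus stood near the level of all genes. Among cyclins and their kinases, Ccnd1 stood at 539 against 128 CPM (2.07) and Cdk6, their partner kinase, at 86.9 against 2.57 CPM (5.08). Ccnd2 stood at 229 against 63.7 CPM (1.85), well below the 2039 CPM of the Myh11-holding barcodes.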

How the data were processed

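The deposited values were UMI counts per gene and barcode, made by the authors with Cell Ranger 7.0.0 on GRCm39 from 10x 3′ libraries with a target of 5000 cells each; the submitters' notes also name STARsolo and Seurat 4.2.1. The study's methods describe a correction for free RNA in F/R/C+CP; the deposited counts are whole numbers, and whether they carry it could not be told from them. F/R/C held 5541 barcodes and 36999292 UMIs (500 to 33660 each). The CP library held 12000 barcodes and 313078984 UMIs (12097 to 141319 each). Of the barcode sequences 18 occurred in both, none melanocyte-like.

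Barcodes with 250 to 7000 genes (4000 in F/R/C), at most 15% mitochondrial and 40% ribosomal protein UMIs were kept. UMIs were summed per group. Log2 CPM ratios carry conditional binomial 95% intervals and shares Clopper-Pearson ones; a count of 0 was set to 3. Genes with a mean of at least 20 CPM were compared. The log2 ratios and their intervals were tested on simulated counts. Scrublet and principal components (2000 variable genes) were run in scanpy 1.11.5 (Python 3.11.15, seed 1). The members and lists were chosen with earlier results of these data known. Named genes were the compared pigment, factor and receptor genes, the 20 highest and 10 lowest ratios at 50 CPM or more, and the 4 highest and lowest of other lists. Pax7, Mki67, Acta1, Myo5a and list genes below the level compared were named after their values were seen. Limits on muscle UMIs were set after the values were seen. Some genes are not reported here.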

Additional observations from a re-analysis of the deposited data

Results flagged for a closer look

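The filters left out 12 further barcodes of the F/R/C+CP library that held at least 8 UMIs of the rule genes, 57 to 290 each, whereas 0 of all 5541 barcodes of the F/R/C library did, with or without filters. They were singled out because they carry the signal but stand outside the comparisons of the report. Of the 12, 4 were left out for mitochondrial shares of 30.4 to 50.7% and 8 for more than 7000 detected genes, with 44720 to 86300 UMIs. Among these 8, 4 held at least 3 Myh11 UMIs and 4 held at least 18 Myog UMIs. With them the library held 85 such barcodes in place of 73.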

How the results depend on the processing

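No paired analysis was possible because each group is 1 library. All values rest on 73 barcodes of 1 clone, and counting error is the only error they carry. Between 50 and 85 barcodes were counted under 11 other rules (other limits of the summed count, each rule gene left out, thinning, no filter, high Scrublet scores or the 18 most sarcomere-rich barcodes removed). Setting aside barcodes with muscle UMIs, chosen after seeing the data, left 43, or 55 with Cdkn1c left out of the myogenic list. The 643 genes at least 2-fold higher became 1313 with those 43, 9272 with no filter on low values, 275 at a mean of at least 50 CPM and 392 against Myh11-holding barcodes. The 122 genes at least 2-fold lower became 592, 687, 54 and 509 in the same settings, 61 with no filter on barcodes, 342 without high Scrublet scores, 367 without the most sarcomere-rich barcodes, 235 as a mean over barcodes, 244 after thinning and 296 against Pax7-holding barcodes. Of 20 lists 16 had a median above that of all genes, and 10 had against Myh11-holding barcodes. The median sarcomere ratio of 0.757 fell to 0.216 without the most sarcomere-rich barcodes and to 0.239 in the 43, both chosen on these genes. Neighbour shares were 80.3 to 83.2% with other neighbour numbers, components or genes and 94.6% in the 43. The median share with a UMI over Mitf, Sox10, Pax3, Kit and Tyr was 80.8% thinned and 91.8% unthinned. Among named genes at least 2-fold apart from the others, 17 turned direction, in each case against Myh11-holding barcodes: B2m (-0.23), Ccnd2 (-3.16), Cdkn1c (1.14), Col5a2 (-1.96), Dlg2 (0.095), Dync1i1 (0.65), Hexa (-0.14), Ifitm3 (-1.87), Ifnar2 (-0.36), Mmp2 (-0.37), Myod1 (0.65), Pmp22 (-0.63), Postn (-2.48), Socs5 (-1.81), Sox5 (-0.37), Timp3 (-2.23) and Zeb2 (-0.61). Smaller ratios turned in other settings too, as did list medians: cycling genes to 0.047 in the 43 and 0.049 without the most sarcomere-rich barcodes, connective tissue genes to -0.058 as a mean over barcodes, -0.044 after thinning and -0.19 against Pax7-holding barcodes, Wnt targets to -0.21 against the latter, and smooth muscle genes to 0.45 with no filter on barcodes. Against Myh11-holding barcodes the medians also turned for connective tissue (-2.93), matrix (-1.68), interferon (-0.70) and JAK-STAT genes (-0.36). They turned there for TGF-β targets (-0.25), adhesion (-0.18), cyclic AMP (-0.027), Wnt (-0.018) and cycling genes (0.47) too. The interferon median turned to -0.044 against Pax7-holding barcodes. The cause of these shifts was not tested.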

Other observations

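Signalling genes tied to the molecules in the medium showed mixed values in the melanocyte-like barcodes, and the counts here stand beside 55.4% of all genes with a ratio above 1. Of 9 compared JAK-STAT genes 8 were higher, 3 of the 9 passing the filter only through the melanocyte-like barcodes, with a median log2 ratio of 0.50: Ifnar2, a type I interferon receptor subunit, stood at 37.4 against 16.1 CPM (1.21), the feedback inhibitor Socs5 at 1.11 and Jak1 at 0.76, while Lifr, a receptor of leukaemia inhibitory factor, stood at -0.75. Against the Myh11-holding barcodes Ifnar2 and Socs5 turned to -0.36 and -1.81, and the median of the JAK-STAT list to -0.36. Interferon-stimulated genes were scarce, with 13 of 36 at 0 and 6 compared (median 0.28), and B2m and Ifitm3 stood at 1.26 and 1.03. Against the Myh11-holding barcodes B2m and Ifitm3 turned to -0.23 and -1.87, and the median of the interferon list to -0.70. Among TGF-β targets the receptor Tgfbr2 stood at 141 against 14.9 CPM (3.23) and the inhibitors Smad7, Smad6 and Pmepa1 at 2.95, 2.85 and 2.17, in a list where 9 of 16 were higher (median 0.40), a share near that of all genes, and 3 of the 16 passed only through the melanocyte-like barcodes. Wnt targets (5 of 7 higher, median 0.18) were led by Ccnd1 and Tcf7l1 (0.71), with Znrf3 at -0.83. In the cyclic AMP list (10 of 16 higher, 2 passing only through the melanocyte-like barcodes, median 0.18) Ppargc1a led, followed by Crtc3 (1.33) and Jund (1.02), and Rgs2 and Sik1 stood at -1.36 and -1.16. Against the Myh11-holding barcodes the TGF-β, Wnt and cyclic AMP medians turned to -0.25, -0.018 and -0.027.

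Single surface and matrix genes stood far from the other barcodes, and the counts of each list stand beside the 55.4% of all genes with a ratio above 1. Alcam, an adhesion protein, stood at 110 against 0.719 CPM (7.26) in 52 of 73 barcodes, followed by the integrins Itgb8 (3.04) and Itga6 (2.05) and the tetraspanin Cd9 (2.51), whereas M-cadherin (Cdh15) and Itga7 of muscle cells stood at -1.12 and -0.66. Of 15 compared adhesion genes 10 were higher, with a median of 0.74, and 3 passed only through the melanocyte-like barcodes. In the matrix list 14 of 22 were higher (median 0.69) and 6 passed only through the melanocyte-like barcodes; it was led after Ptgds by the laminin chain Lama4 (2.91) and Mmp2 (2.47), with Timp1 and Spp1 at -1.58 and -0.92. Connective tissue genes were higher in 9 of 12 (median 0.32, which turned to -0.058 as a mean over barcodes and -0.044 after thinning), 2 passing only through the melanocyte-like barcodes, with Postn at 2.66 and Col5a2 at 2.34, and Lum and Pdgfra at 0. Both were uneven: Postn was seen in 15 of 73 barcodes with 88.1% of its UMIs in 7, and Col5a2 in 34 with 56.6% in 7. The Myh11-holding barcodes held 283 CPM of Postn and 178 CPM of Col5a2 against 50.7 and 45.9 in the melanocyte-like ones. With the Myh11-holding barcodes as the comparison, the adhesion, matrix and connective tissue medians turned to -0.18, -1.68 and -2.93. Of 39 Hox genes 1 was compared (Hoxa7, -0.62), and Cdkn2d, the CDK inhibitor with the highest ratio, stood at 0.84.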
